A study of Mus musculus with 3 samples.

Results

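The nuclear pore and nuclear transport genes are the genes whose protein products build the pore through the nuclear envelope or carry cargo across it. Members were chosen by symbol alone: names starting with Nup, Kpna, Kpnb, Xpo, Ipo or Tnpo followed by a digit, and Tpr, Ndc1, Aaas, Pom121, Ranbp2, Rae1, Seh1l and Ran, with pseudogene names left out. This gave 51 of the 24982 gene symbols in the files, of which 28 encode pore proteins, 22 encode carriers and 1 is Ran. RNA was sequenced from LKS cells, the lineage-negative, Kit-positive, Sca1-positive bone marrow fraction that holds haematopoietic stem and progenitor cells. There were 2 libraries from wild-type (WT) recipient mice and 1 from CD73-/- recipient mice (KO). CD73 is the surface enzyme that makes adenosine from AMP. The labels call the mice recipients without saying whether donor or host cells were sorted. They give no age or transplant details and do not tie the WT libraries to separate animals. The spread behind each p-value is thus that between these samples and may be technical.

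The pore is built of stacked rings anchored in the membrane where both nuclear membranes fuse. Filaments face the cytoplasm, a basket hangs into the nucleus, and proteins rich in phenylalanine-glycine repeats fill the channel. Importins bind cargo in the cytoplasm and release it in the nucleus when they meet the GTP form of the small GTPase Ran, while exportins need RanGTP to hold their cargo. In stem and progenitor cells, as in all cells that divide, the pores are rebuilt after each mitosis.

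Depth was low: the gene-level counts summed to 361638 and 324954 in WT replicates 1 and 2 and to 264704 in KO. One count was worth 2.77, 3.08 and 3.78 CPM (counts scaled to that sum) in the same order, and 9501, 9519 and 8474 genes had a count. Of the stem and progenitor markers of the sorted population, 13 of 13 had a count, with Kit at 517, 637 and 555 CPM and Ly6a, which encodes Sca1, at 166, 58.5 and 136 CPM. The KO level of both thus lay within the WT pair, but the summed list was lowest in KO, at 3365, 3917 and 2539 CPM. Its log2 fold change was negative in 10 of 12 tested genes, against 56.9% of all tested genes. None of the 12 passed an adjusted p of 0.05 with edgeR. Of the 9 that reached 50 counts, 6 lay below both WT libraries, against 39.5% of all genes with that many counts. Among these 6, Ptprc, which encodes CD45, had 401, 415 and 159 CPM and the transcription factor gene Gata2 337, 234 and 106 CPM. Myb lay above both WT libraries, at 503, 674 and 710 CPM. Summed CPM of 10 mature neutrophil markers, all with a count in some library, was 830, 1148 and 378. That of 8 monocyte and macrophage markers, 1 of them at 0 throughout, was 183, 692 and 586. In this list 4 of 5 tested genes had positive log2 fold changes (median 2.03), against 3441 of all 7984 tested genes, and none passed. Lyz2 was negative, at 88.5, 345 and 75.6 CPM. Ccr2 (0, 6 and 39 counts), Csf1r (0, 4 and 14) and Itgam (4, 18 and 35) lay above both WT libraries, as did 29.7% of genes with a count. Of 8 erythroid markers, 7 for B cells, 8 for T and NK cells and 8 for stroma and endothelium, 5, 3, 5 and 5 were at 0 in all libraries. The summed CPM was 423, 129 and 484 for the erythroid list, 16.6, 64.6 and 7.56 for the B cell list, 194, 105 and 155 for the T and NK cell list and 147, 191 and 128 for the stromal list. Most of the erythroid, T and NK cell and stromal sums came from a single gene each. These were Hbb-bt (418, 129 and 431 CPM), Nkg7 (188, 98.5 and 155 CPM) and Pecam1 (144, 191 and 98.2 CPM).

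Promoter sequence is shown for 3 members that the account turns on: Nup153 and Nup50, both of the nuclear basket, and Ran, the most abundant member per length. Sequences are from RefSeq on GRCm38.p6, whose primary chromosomes are those of mm10, and run 5′ to 3′ on the strand of the gene. Each starts 250 bases before the RefSeq gene start and stops before the first exon annotated there by GENCODE. Nup153 lies on the minus strand (chr13:46727941-46728099), Nup50 on the plus strand (chr15:84923178-84923410) and Ran on the plus strand (chr5:129019906-129020068). Capitals mark the letters searched for on both strands, which did not overlap each other.
Nup153: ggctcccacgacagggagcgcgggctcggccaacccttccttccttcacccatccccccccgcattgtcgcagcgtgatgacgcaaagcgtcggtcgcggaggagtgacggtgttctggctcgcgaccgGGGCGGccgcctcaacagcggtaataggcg
Nup50: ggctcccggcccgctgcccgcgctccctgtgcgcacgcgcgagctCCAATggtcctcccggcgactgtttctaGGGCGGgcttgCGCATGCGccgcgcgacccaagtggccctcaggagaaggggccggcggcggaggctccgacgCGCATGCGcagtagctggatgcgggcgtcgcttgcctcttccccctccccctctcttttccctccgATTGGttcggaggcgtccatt
Ran: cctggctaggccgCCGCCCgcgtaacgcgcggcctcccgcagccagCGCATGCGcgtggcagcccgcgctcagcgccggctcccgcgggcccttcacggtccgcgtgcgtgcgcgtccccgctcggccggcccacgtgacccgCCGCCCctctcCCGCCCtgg
Of the 51 members, 41 matched the promoter table, with 48 start sites, and the 250 bases before each start were searched. The core letters CGCATGCG of the NRF1 motif were in 5 of the 48 (10.4%), against 1.55% of 32851 promoters of the same length. They were present in 2 copies in the stretch of Nup50, in 1 copy in that of Ran and in none in that of Nup153. The GC box GGGCGG was in 58.3% of member promoters against 32.7% of all, CCAAT in 45.8% against 33.8%, and the ETS letters CCGGAAG in 16.7% against 6.91%. The CRE letters TGACGTCA were in 4.17% against 1.55%, and the YY1 core letters AGATGGCG in 4.17% against 1.03%. A match describes these letters only.

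Per unit of transcript length, Ran was the most abundant member. Its deposited FPKM, summed over transcripts, was 255 and 299.5 in WT replicates 1 and 2 and 134 in KO. The next 5 members by mean FPKM were Nup85 of the outer ring, Aaas, the pore protein ALADIN, Kpnb1, which is importin beta, Nup210, a membrane glycoprotein of the pore, and Xpo6, the exportin for actin. Nup85 had 74.7, 154 and 65.6 FPKM and Aaas 56.6, 88.8 and 135 FPKM. Kpnb1 had 49.9, 89.7 and 104 FPKM, Nup210 102, 81.1 and 52.8 FPKM, and Xpo6 64.8, 51.2 and 76.7 FPKM. Ran stood above each of these in both WT libraries but was level with Aaas in KO, and the ranges of these 5 overlapped one another. Nup62cl, Nup210l and Kpna7 had 0 counts in all 3 libraries, which allows up to 8.30, 9.23 and 11.3 CPM. Nup98, Nup133, Nup35 and Xpo4 had at most 5 counts in any library. These 7 members did not pass the filter on low counts, which left 44 tested.

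The question put to the data was whether LKS cells of CD73-deficient recipients carry other levels of the transport machinery. These are bulk samples, in which fewer cells of a type and less RNA per cell cannot be told apart. No member passed the test: with edgeR's quasi-likelihood test and Benjamini-Hochberg adjustment over 7984 genes, 0 of 44 rose and 0 fell, with adjusted p from 0.12 upwards. Over all genes 8 (0.1%) were higher and 0 (0.0%) lower. At an unadjusted p under 0.05, 3 members were lower and 0 higher, or 6.82% lower against 6.51% of all tested genes, and 3.53% of all genes were higher. DESeq2 called 0 of 48 members, with 3 at an unadjusted p under 0.05. It also called 0 of 11402 genes, with 621 at an unadjusted p under 0.05, so its result says nothing particular to the members. In simulations of this comparison on 6930 to 7036 genes, the test recovered 70.67% of genes raised 16-fold and 6.667% of genes lowered 16-fold, and at 4-fold it recovered 12% of raised and 0% of lowered genes. The test could thus find few lower genes of either size and few genes raised 4-fold. The changed genes were drawn only from those above a minimum of summed counts. Some tested members, such as Nup43 and Kpna1, lay under that minimum, so these shares do not cover them.

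By value, the log2 fold change (KO against WT) was negative in 33 of the 44 members (75.0%, against 56.9% of all tested genes) and positive in 11. The median was -0.62, beside -0.31 over all tested genes. Among members and genes with a count in every library it was -0.44 and -0.11. Of the 48 members with a count, the KO level lay below both WT libraries in 24 and above both in 12, against 33.0% and 29.7% of the 11402 genes with a count. Of the 19 members that reached 50 counts it lay below both in 10 (52.6%) and above both in 4 (21.1%), against 39.5% and 29.1%. A size rule without a test took genes that reached 50 counts in a library and had a KO level at least 2-fold from each WT library on the same side (on CPM plus 1). It held for 4 lower members of 19 (21.1%) against 17.9% of 2831 genes, and for 1 higher member (5.26%) against 9.25%. The shares lie near those of all genes, so the size rule gives no result about the members as a whole. The WT pair itself differed: of 37 members with at least 20 counts in a WT library, 17 differed at least 2-fold between the WT libraries and 8 at least 4-fold, against 52.6% and 27.6% of 5801 genes.

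**Figure D1:**
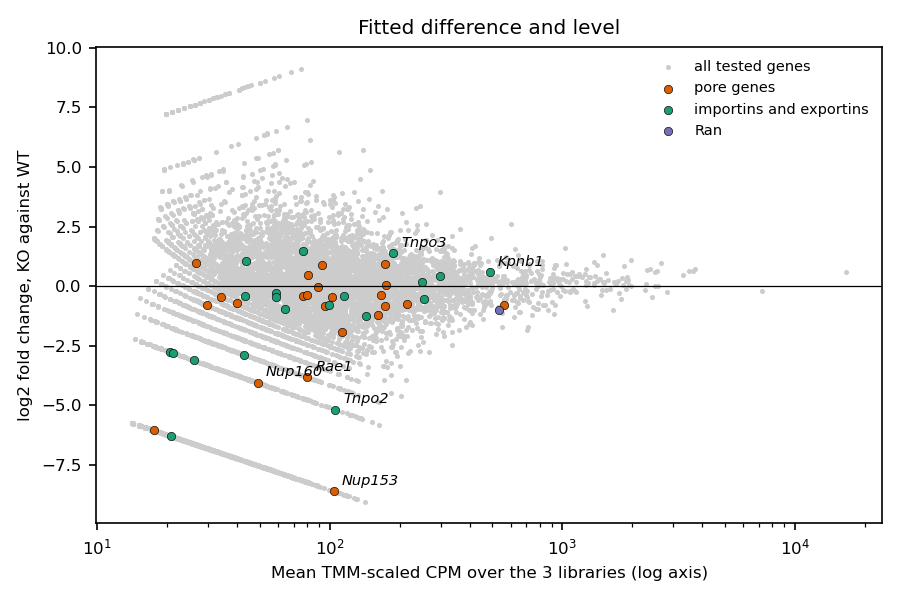
Fitted log2 fold change, KO against WT, of each tested gene (vertical axis) against its mean TMM-scaled CPM over the 3 libraries (log axis), with pore genes, carriers and Ran in colour and the other tested genes in grey. Nup153 and Tnpo2 lie far below 0, Kpnb1 and Tnpo3 above it, and the lower diagonal lines are genes with 0 or few KO counts, where the fitted value is no bound.

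Levels were also summed over the pore genes and over the carriers. The 28 pore genes summed to 3064 and 3019 CPM in the WT libraries and 2014 CPM in KO, so the KO sum lay below both. The 22 carriers summed to 2348 and 2425 CPM in WT and 2312 CPM in KO, which is 0.969 of the WT mean. By gene, the log2 fold change was negative in 18 of 23 tested pore genes (78.3%) and 14 of 20 tested carriers (70.0%). The share over all tested genes was 56.9%. The medians were -0.72 for pore genes and -0.48 for carriers, beside -0.31 over all tested genes. The near-equal carrier sum thus does not mean that single carriers were unchanged. Nor was any carrier shown to change, since none passed the edgeR test (lowest adjusted p 0.24). With a single KO library, these sums have no replicate check on the KO side.

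**Figure D2:**
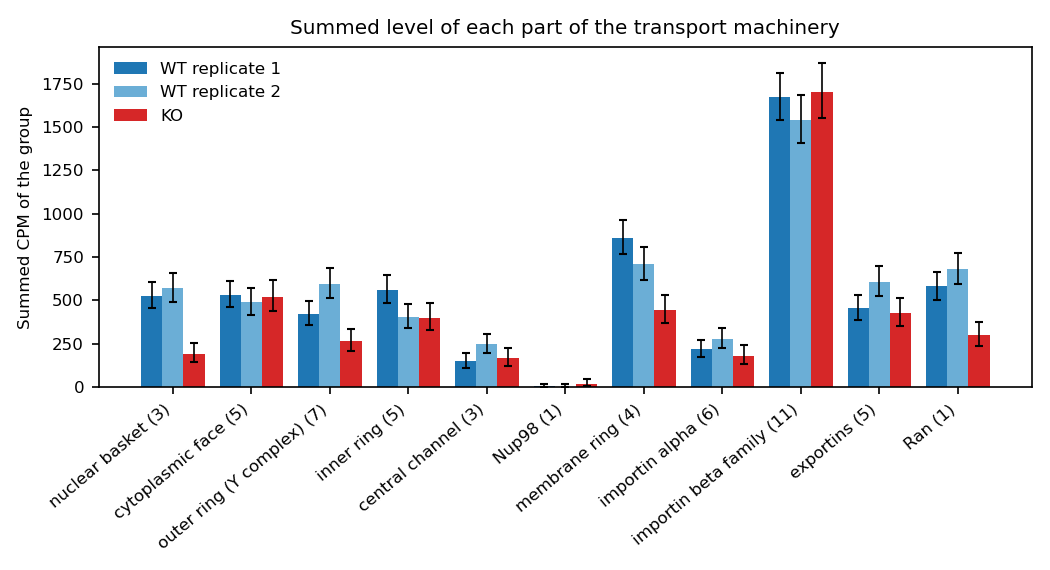
Summed CPM (vertical axis) of the members of each structural or carrier group in the 3 libraries, with the number of members in brackets and exact 95% Poisson intervals that cover counting error only. Libraries are to be compared within a group, since CPM is not per length: in the nuclear basket the KO bar is 193 against 528 and 569, while in the importin beta family it is 1704 against 1673 and 1542.

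All 3 members of the nuclear basket had lower values in KO than in either WT library. Nup153, a repeat-rich basket protein that docks import complexes and helps assemble the pore, had 52 and 53 counts in WT (144 and 163 CPM) and 0 in KO. With 3 counts as the 1-sided 95% limit for a count of 0, the KO level was at least 13.5-fold below the WT mean. The 2-sided 95% Poisson interval is wider and reached 13.9 CPM in KO. Floor and interval cover counting error in KO only, not the spread between libraries. Its adjusted p was 0.12, and of all genes that reached 50 counts in a library 3.46% had 0 KO counts. Tpr, the coiled-coil protein that forms the filaments of the basket, had 191 and 200 CPM in WT and 83.1 CPM in KO. Its log2 fold change was -1.19 (SE 1.13, adjusted p 0.80), and its exons overlap those of Odr4 on the other strand (61, 17 and 0 counts), and without stated strand use such reads may be mixed. Nup50, a mobile basket protein that helps importin alpha let go of its cargo, had 194 and 206 CPM in WT and 110 CPM in KO, with a log2 fold change of -0.82 (SE 1.07, adjusted p 0.86).

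In these 3 genes the WT libraries lay close together and the KO library apart. The summed basket level was 549 ± 29.1 CPM (SD, n = 2) in WT and 193 CPM in KO (95% Poisson interval 143 to 253, counting error only). This group was picked out after its values were seen, and 39.5% of all genes that reached 50 counts lay below both WT libraries. KO was also the library with the lowest depth, the lowest neutrophil marker sum and the lowest stem and progenitor marker sum (3365, 3917 and 2539 CPM), and the part of any of these in the basket values was not tested. Nup153 lies on chromosome 13 at 46679902 to 46727849, Tpr on chromosome 1 at 150392802 to 150449935 and Nup50 on chromosome 15 at 84923428 to 84942963 (RefSeq, GRCm38.p6), and the counts cover their annotated transcripts.

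**Figure D3:**
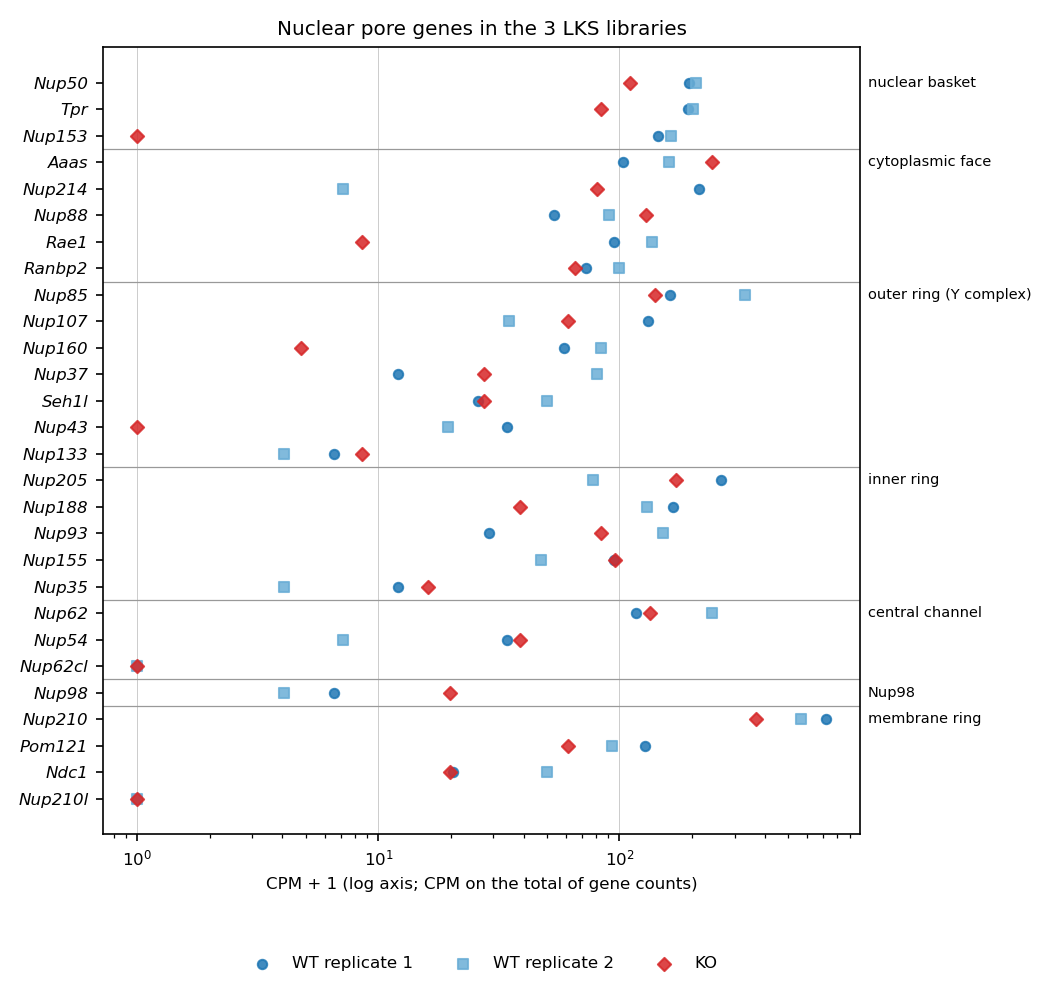
CPM plus 1 (horizontal log axis) of each of the 28 pore genes, grouped by place in the pore, with one point per library. KO points of Nup153, Tpr and Nup50 lie left of both WT points, those of Aaas and Nup88 right of both, and points at 1 are counts of 0.

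On the cytoplasmic face, members pointed in different directions. Rae1, the mRNA export factor that binds Nup98, had 34 and 44 counts in WT and 2 in KO, or 94.0, 135 and 7.56 CPM. The pooled WT level was 15.0 times that of KO, with an exact interval of 4.03 to 126 for counting error, and the adjusted p was 0.48. Aaas had 102 and 160 CPM in WT and 242 CPM in KO, above both, with a log2 fold change of 0.92 (adjusted p 0.83). Nup88, a filament protein held by Nup214, had 52.5, 89.2 and 128 CPM, also above both. Its exons overlap Rabep1 on the other strand (19, 30 and 2 counts). Nup214, its filament partner, had 77 and 2 counts in the WT libraries and 21 in KO, so the WT pair spanned the KO value. Nup214 overlaps Fam78a on the other strand (23, 12 and 5 counts). Ranbp2, the giant filament protein that binds Ran, had 26, 32 and 17 counts. Together the 5 genes of this face summed to 534, 489 and 521 CPM, with KO between the WT values.

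The outer ring, or Y complex, is the scaffold that also seeds new pores. Its 7 genes among the members summed to 423 and 597 CPM in WT and 264 CPM in KO. Nup85 had 58, 107 and 37 counts, with KO (140 CPM) just under WT replicate 1 (160 CPM). Nup160, an arm of the Y, had 21, 27 and 1 counts, a pooled WT level of 18.5 times KO with an exact interval of 3.17 to 746 and an adjusted p of 0.60. Nup43 had 12, 6 and 0 counts. For Nup107 (47, 11 and 16 counts), Nup37 (4, 26 and 7) and Seh1l (9, 16 and 7) the KO level lay within the WT pair. All 6 tested members of this ring had negative log2 fold changes, from -6.05 for Nup43, a fitted value at 0 KO counts and no bound, to -0.40 for Nup107, and none passed. Of all tested genes 56.9% had negative values. The rule on names left out Sec13, also of the Y complex, which lay above both WT libraries in KO (30.4, 228 and 261 CPM, log2 fold change 1.06). It also left out Ahctf1, which targets this complex to chromatin and lay below both (49.8, 335 and 26.4 CPM). The sum and the shared sign thus hold for the members only.

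The inner ring, which lines the wall of the channel, gave no common direction. Nup188 had 60, 42 and 10 counts, or 166, 129 and 37.8 CPM, a log2 fold change of -1.92 (SE 1.37, adjusted p 0.73) and a KO level below both WT libraries. Nup205, its close relative, had 263, 76.9 and 170 CPM, so KO sat between 2 WT values that differed 3.41-fold. Nup93, the linker of this ring, had 27.7, 151 and 83.1 CPM and Nup155 had 94.0, 46.2 and 94.4 CPM. In the central channel, Nup62 had 116, 240 and 132 CPM and Nup54 33.2, 6.15 and 37.8 CPM. Both bear the repeats that form the permeability barrier.

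Nup98, a mobile repeat protein whose gene also encodes the scaffold protein Nup96, was almost undetected. It had 2, 1 and 5 counts, and these fell on different annotated transcripts: the 2 of WT replicate 1 on transcripts that held 0 in the others.

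The membrane ring anchors the pore in the envelope. Nup210 was the most abundant of its genes, with 259, 184 and 97 counts, or 716, 566 and 366 CPM. Its log2 fold change was -0.77 (SE 0.61, adjusted p 0.77), and KO was below both WT libraries. Pom121, which helps pores form in the intact envelope, had 127, 92.3 and 60.4 CPM, and Ndc1 19.4, 49.2 and 18.9 CPM. Pom121 shares exon bases with Nsun5 on the other strand (9, 0 and 10 counts). The KO level was thus lowest in all 3 genes with counts, though for Ndc1 it barely differed from WT replicate 1, and the sum was 863, 708 and 446 CPM. Of all genes with a count, 33.0% had a KO level below both WT libraries.

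Ran, the GTPase that gives transport its direction, had 210 and 221 counts in WT and 80 in KO. These are 581, 680 and 302 CPM, so KO was below both, with a mean of 630 ± 70.3 CPM (SD, n = 2) in WT. The log2 fold change was -1.02 (SE 0.64), and with an adjusted p of 0.64 Ran did not pass the test. Rasl2-9, a near-identical copy of Ran, had 5, 7 and 1 counts, and reads could be split between them. Ran lies on chromosome 5 at 129020156 to 129024322.

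The 11 importin beta family genes had a summed level of 1673 and 1542 CPM in WT and 1704 CPM in KO. Kpnb1, the carrier that pairs with importin alpha for classical import signals, had 293, 526 and 604 CPM, and its KO value was above both (log2 fold change 0.60, SE 0.62, adjusted p 0.82). Tnpo3, which imports SR splicing factors, had 51, 32 and 81 counts, or 141, 98.5 and 306 CPM. Its log2 fold change was 1.39 (SE 0.96, adjusted p 0.71), and it overlaps Irf5 on the other strand (30, 2 and 10 counts). Tnpo3 was the member with a higher level under the size rule. Tnpo2, a transportin for proline-tyrosine signals of RNA-binding proteins, went the other way, with 90, 19 and 1 counts. It overlaps A230103J11Rik on the other strand (0, 6 and 0 counts).

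The pooled WT level of Tnpo2 was 42.0 times that of KO, with an exact interval of 7.39 to 1675 for counting error and an adjusted p of 0.24. The WT libraries themselves differed 4.26-fold for this gene. Its relative Tnpo1 had 2 and 73 counts in WT and 17 in KO, a 40.6-fold difference within the WT pair. The 3 transportins thus gave 3 different orders of the libraries.

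Of the other importins, Ipo9 had 337, 218 and 189 CPM and Ipo5, which imports ribosomal proteins and histones, had 299, 169 and 261 CPM. Ipo7 had 119, 129 and 90.7 CPM, Ipo4 33.2, 61.5 and 128 CPM and Ipo8 88.5, 33.9 and 49.1 CPM. Ipo11 (24, 2 and 1 counts) and Ipo13 (15, 5 and 1) were near the limit of detection in KO. KO was below both WT values for Ipo9, Ipo7, Ipo11 and Ipo13, above both for Ipo4, and between them for Ipo5 and Ipo8.

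Importin alpha proteins are the adaptors that read classical import signals. Their 6 genes had few counts, and none reached 50 counts in a library. Kpna2, the form abundant in dividing cells, had 17, 34 and 10 counts. Kpna4 had 30, 14 and 12, Kpna6 6, 25 and 9, and Kpna3 5, 16 and 17. Kpna1 had 21, 1 and 0 counts, so WT replicate 2 lay nearer to KO than to WT replicate 1. The adaptor sum was 218, 277 and 181 CPM.

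Among the exportins, Xpo6 had 293, 231 and 344 CPM, with KO above both. Xpo1, the exportin for leucine-rich signals that serves most exported proteins, had 96.8, 255 and 71.8 CPM, with KO below both but close to WT replicate 1 (log2 fold change -1.24, SE 1.19, adjusted p 0.80). Xpo7 had 13, 27 and 2 counts and Xpo5, which exports precursor microRNAs, had 9, 11 and 1. The pooled WT levels were 7.71 times those of KO for both. The exact interval of this ratio for counting error was 1.23 to 319.6 for Xpo5, with 1 KO count. The summed exportin level was 456, 606 and 427 CPM.

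**Figure D4:**
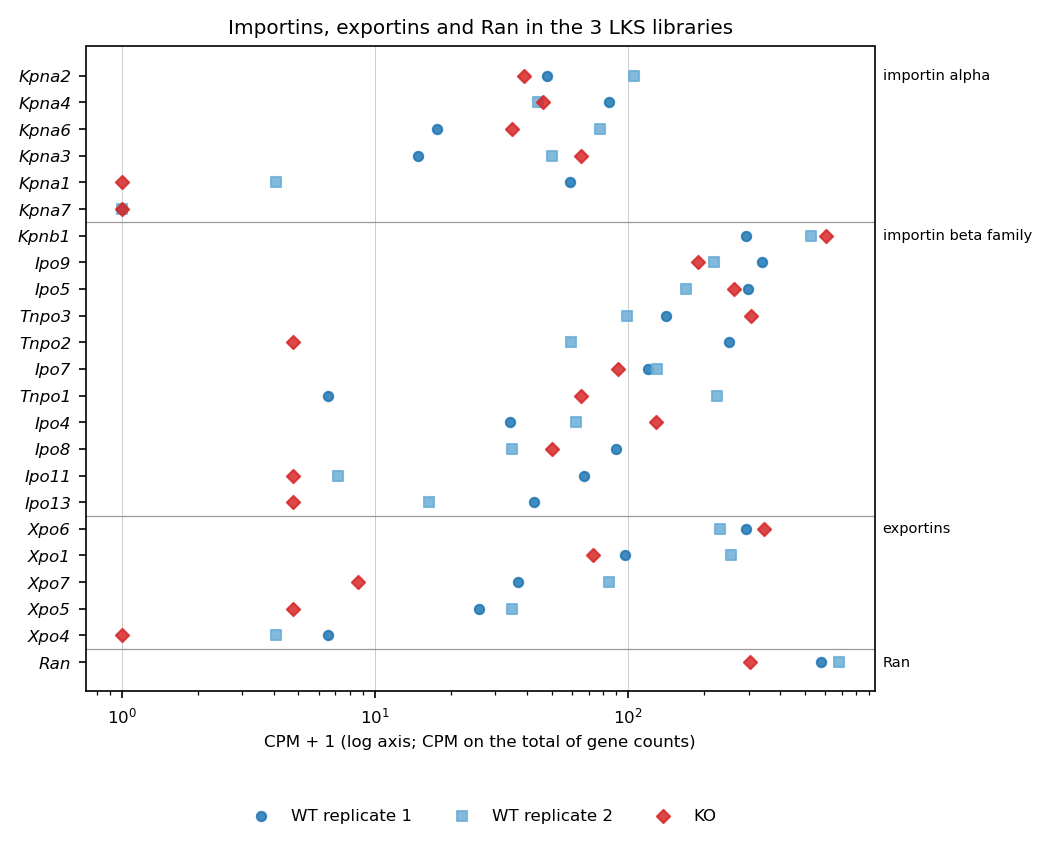
CPM plus 1 (horizontal log axis) of the 22 carriers and Ran, grouped by family, with one point per library. KO points of Kpnb1, Tnpo3 and Xpo6 lie right of both WT points, those of Ran and Tnpo2 left of both, and the WT points of Tnpo1 lie far apart.

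Other genes of the pathway, from lists chosen by function, gave 0 calls in either direction. Of the Ran cycle, 7 of 8 genes were tested, with a median log2 fold change of -0.093. Rangap1, which makes Ran hydrolyse GTP at the cytoplasmic face, had 27, 27 and 98 counts, or 74.7, 83.1 and 370 CPM (log2 fold change 2.27, SE 0.97, adjusted p 0.36). Ranbp3, a cofactor of Xpo1, had 144, 366 and 196 CPM, and Rcc1, the exchange factor that loads Ran with GTP on chromatin, had 179.7, 27.7 and 79.3 CPM. For both, the KO level lay between the WT values. Rangap1 and Ran thus had KO values on opposite sides of their WT pairs.

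Pore and transport genes with other names had a median of -0.43 over 9 tested. Cse1l, the exportin that returns importin alpha to the cytoplasm, had 76, 71 and 41 counts, Sec13 of the Y complex 11, 74 and 69, and Ahctf1, which targets the Y complex to chromatin, 18, 109 and 7. In the mRNA export list, 19 of 22 genes were tested and the median was 0.39. Thoc1, a core subunit of the THO complex, had 10, 10 and 97 counts, or 27.7, 30.8 and 366 CPM, with a log2 fold change of 3.67 (SE 1.10, adjusted p 0.12). Ddx39b, the helicase that loads export factors, had 672, 1034 and 699 CPM, Zc3h11a 288, 268 and 348 CPM, and the export receptor Nxf1 235, 295 and 227 CPM. For the nuclear lamina and inner membrane, 15 of 16 genes were tested and the median was -0.23. Sun2, which links the envelope to the cytoskeleton, had 570, 394 and 971 CPM, the lamin Lmnb1 had 304, 265 and 283 CPM, and Tmpo 393, 175 and 246 CPM.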

How the data were processed

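RNA was measured in 3 LKS libraries, 2 WT and 1 KO, grouped by sample title and series design. The authors deposited, for each RefSeq transcript, a whole-number read count and an FPKM value. STAR and mm10 are named, without roles, per the submitters' processing notes. The counter and its strand setting are not stated there or in the labels. The gene count was the highest over a symbol's rows, since transcripts repeat shared reads, and CPM used the sum of gene counts. FPKM was summed over transcripts for levels between genes, in place of the planned value of the transcript with the highest count, because the deposited FPKM splits reads between transcripts. In single-transcript genes, count divided by FPKM was 1.12 and 1.38 times larger (medians) in WT replicate 1 than in WT replicate 2 and KO, beside ratios of 1.11 and 1.37 for the count totals.

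The KO library was compared with the WT pair by edgeR 4.0.16 under R 4.3.3 (filterByExpr, TMM factors 1.00, 1.02 and 0.98, quasi-likelihood F-test, Benjamini-Hochberg adjustment over all genes, threshold 0.05). The spread rests on the WT pair, and KO is assumed to vary alike. SE is the absolute log2 fold change over the square root of F, and is not given at 0 counts. The test was tested on simulated data. DESeq2 1.42.0 and limma 3.58.1 on log2(FPKM + 1) were alternatives. Named were members past the test or size rule, members at 0 in a group with at least 20 counts elsewhere, and the 4 with the highest counts per role, with others given for completeness. Of pathway lists, genes past either rule and the 3 with the highest counts were named. Members and lists were chosen with earlier results of these data known. Intervals and floors cover counting error only. One gene of the pathway was left out of these lists and is not reported here.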

Additional observations from a re-analysis of the deposited data

How the results depend on the processing

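No member passed the test under any of 8 other settings that give one, nor with limma on FPKM summed over transcripts, which was chosen after seeing the data. The number of all genes past the threshold did change, from 8 to 3 with upper-quartile scaling, 4 with no filter on low counts, 1 with the mean count over rows, and 0 with DESeq2, with at least 10 counts in every library or 50 in any, and with both limma fits on FPKM. Those fits of 0 had 621, 340, 532 and 541 genes at an unadjusted p under 0.05. The median of the members stayed negative throughout, at -0.35 and -0.39 with limma on FPKM of the transcript with the highest count and summed over transcripts, on a scale that understates the change of low genes. Without one WT replicate it ranged from -0.81 to -0.50. The size rule took 10 members instead of 5 with at least 20 counts (8 lower, 22.6% of all genes, and 2 higher, 12.0%) and 9 at 1.5-fold (7 lower, 24.6% of all genes, and 2 higher, 15.3%). Without WT replicate 1 it took 11 members (8 lower, 28.6%, and 3 higher, 21.2%) and without WT replicate 2 it took 9 (5 lower, 28.3%, and 4 higher, 18.1%). Of 375 alternative values of 35 named members, 16 changed sign. Another setting did so for 7: Nup205 to -0.044 with upper-quartile scaling and -0.0069 with library totals, Ipo9 to 0.42 and Nup93 to 1.07 with limma on the transcript with the highest count, Nup93 to 0.063 with FPKM summed over transcripts, and Nup214 to 0.66 in both limma fits. Leaving out one WT replicate did so for the other 9, all in members whose KO level lay between the WT libraries. Against WT replicate 2 alone and WT replicate 1 alone, in that order, the value was 3.65 and -1.39 for Nup214, 0.88 and -1.07 for Nup107, 0.12 and -0.84 for Kpna4, 0.67 and -0.17 for Ipo5, and 1.19 and -0.60 for Nup205. In the same order it was -0.81 and 1.60 for Nup93, -1.53 and 1.26 for Nup37, -1.12 and 1.05 for Kpna6, and -0.81 and 0.22 for Nup62. A KO value between the WT values changes side with the WT library left out, and the cause of the WT spread was not tested. The transcript with the highest count was picked in each library separately. For Ipo9 it had 14.5 FPKM in WT replicate 1, and a different transcript had 35.3 and 30.7 FPKM in WT replicate 2 and KO. For Nup93 the picked transcripts also differed, at 5.59, 29.8 and 28.9 FPKM. No paired analysis was possible because the single KO library shares no replicate pair with WT. Members at a few counts per library are limited by depth.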
